A study of Rattus norvegicus with 8 samples.

Results

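The oxygen-sensing pathway of the hypoxia-inducible factors (HIF) was followed through 10 genes of a table of 13613 genes, matched by gene symbol: the factors Hif1a, Epas1 and Arnt, the prolyl hydroxylases Egln1, Egln2 and Egln3, the ubiquitin ligase subunit Vhl, and the target genes Vegfa, Car9 and P4ha1. All 10 were matched, and all 10 passed the filter on low reads that kept 12383 genes. RNA was measured in primary cells of the rat nucleus pulposus, the soft centre of a spinal disc, which had grown out of explants and been expanded in medium with serum. In 4 libraries the cells had been transduced with a short hairpin RNA (shRNA) against TonEBP, a transcription factor that answers high tonicity and is the product of Nfat5, and in 4 libraries with a control vector (PLKO1). Both groups were kept in medium with 110 mM of added NaCl for 8 h before RNA was taken, so no culture without added salt enters the comparison. Each group holds 1 library of each of Sets 1 to 4, and the labels do not say whether a Set is an animal, a pool of animals or a culture, nor at what oxygen tension the cells were kept.

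A HIF is a pair of an oxygen-regulated alpha subunit (Hif1a or Epas1) and a constitutive beta subunit (Arnt). With oxygen, the EGLN enzymes hydroxylate the alpha subunit, the VHL protein binds it, and it is degraded; without oxygen it escapes, pairs with ARNT and switches on genes of blood vessel growth, glycolysis, pH control and matrix modification. The nucleus pulposus has no blood vessels, and its cells are known for holding HIF-1 alpha protein even at ambient oxygen. Control of the alpha subunits is largely at the protein level, which RNA does not show.

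Of the 10 genes, Arnt, Egln3 and Vegfa were lower and Car9, P4ha1 and Egln2 were higher in the knockdown library of all 4 Sets. The knockdown mean of Egln3 was 41.4% of the control mean, that of Vegfa 47.7% and that of Arnt 58.5%, against 153% for Car9, 155% for P4ha1 and 89.4% for Hif1a, the oxygen-regulated partner of ARNT. A direction shared by all 4 Sets was found for 33.1% of all genes kept, 17% higher and 16.2% lower. At an adjusted p under 0.05 the authors' deposited table called 3 of the 10 lower (Vegfa, Arnt, Egln3) and 2 higher (P4ha1, Car9), where it called 5.22% of its 12251 genes with a p lower and 4.09% higher, 9.31% in all. DESeq2 on the recovered reads with the Set as a block called the same 3 lower and the same 2 higher, against 5.45% of all genes lower, 4.31% higher and 9.76% in either direction. Limma, the main test, with the Set as a block, called 0 of the 10 and 0% of all genes at an adjusted p under 0.05, and edgeR with the block also called 0 (0%). Without the block limma and DESeq2 each called 0 of the 10, and 0.00808% and 1.43% of all genes. At an unadjusted p under 0.05 limma held the same 5 members, against 11.1% of all genes kept higher, 12% lower and 23.1% (2856 genes) in either direction. The knockdown and control libraries overlapped for each of the 10, whereas for 6.34% of the genes kept they did not. Each value below is a normalized count, the reads of a gene divided by a factor for its library. Gene lengths were not used, so levels are compared between libraries, for a gene, a ratio of genes or a sum over the same genes. A sum of marker genes weights its most read genes most.

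The libraries held between 9567488 and 15782202 reads on the listed genes. Nfat5, the target of the hairpin, measured 1094, 872, 459 and 414 normalized counts in knockdown libraries 1 to 4, against 1682, 2332, 1677 and 942 in control libraries 1 to 4. Nfat5 RNA was thus lower but still present in every knockdown library. The log2 differences were -0.62, -1.42, -1.87 and -1.18 in Sets 1 to 4, smallest in Set 1. Its limma adjusted p was 0.0591, where the lowest limma adjusted p of any gene kept was 0.0578. The authors' deposited table lists Nfat5 at log2 -1.12 (adjusted p = 1.21e-05), and DESeq2 with the block gave an adjusted p of 9.66e-06. Of 15 marker genes of nucleus pulposus cells 11 were matched, and the ranges of the groups overlapped: their summed level ran from 2458 to 24093 in knockdown and from 2743 to 19243 in control libraries. Krt8, Foxf1 and Pax1 had reads in every library. The cartilage genes Col2a1 and Sox9 averaged 3.15 and 9.02 normalized counts in knockdown and 3.16 and 16.4 in control cells. T, Krt19, Acan and Shh were not analysed here. Markers of macrophages and leukocytes (5 of 10 matched) summed to 407 to 633 in knockdown and 537 to 757 in control libraries, with Emr1 at 0 in all 4 knockdown libraries and at up to 10.6 in control libraries. Cd68, a macrophage marker, averaged 37.3 ± 39.7 in knockdown and 90.0 ± 85.0 in control cells (SD, n = 4), called lower in the authors' deposited table. Endothelial markers (4 of 7 matched) summed to 68.9 to 140.5 in knockdown and 142 to 355 in control libraries, most of it from Flt1, the other marker called lower there beside Slc2a1 of the nucleus pulposus list, and Pecam1 stayed at or under 17.5 in all 8 libraries. Of 5 erythroid markers 0 were matched. The part of these cells in the results on HIF genes was not tested, and in such bulk samples fewer cells of a type and less RNA per cell cannot be told apart.

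**Figure D1:**
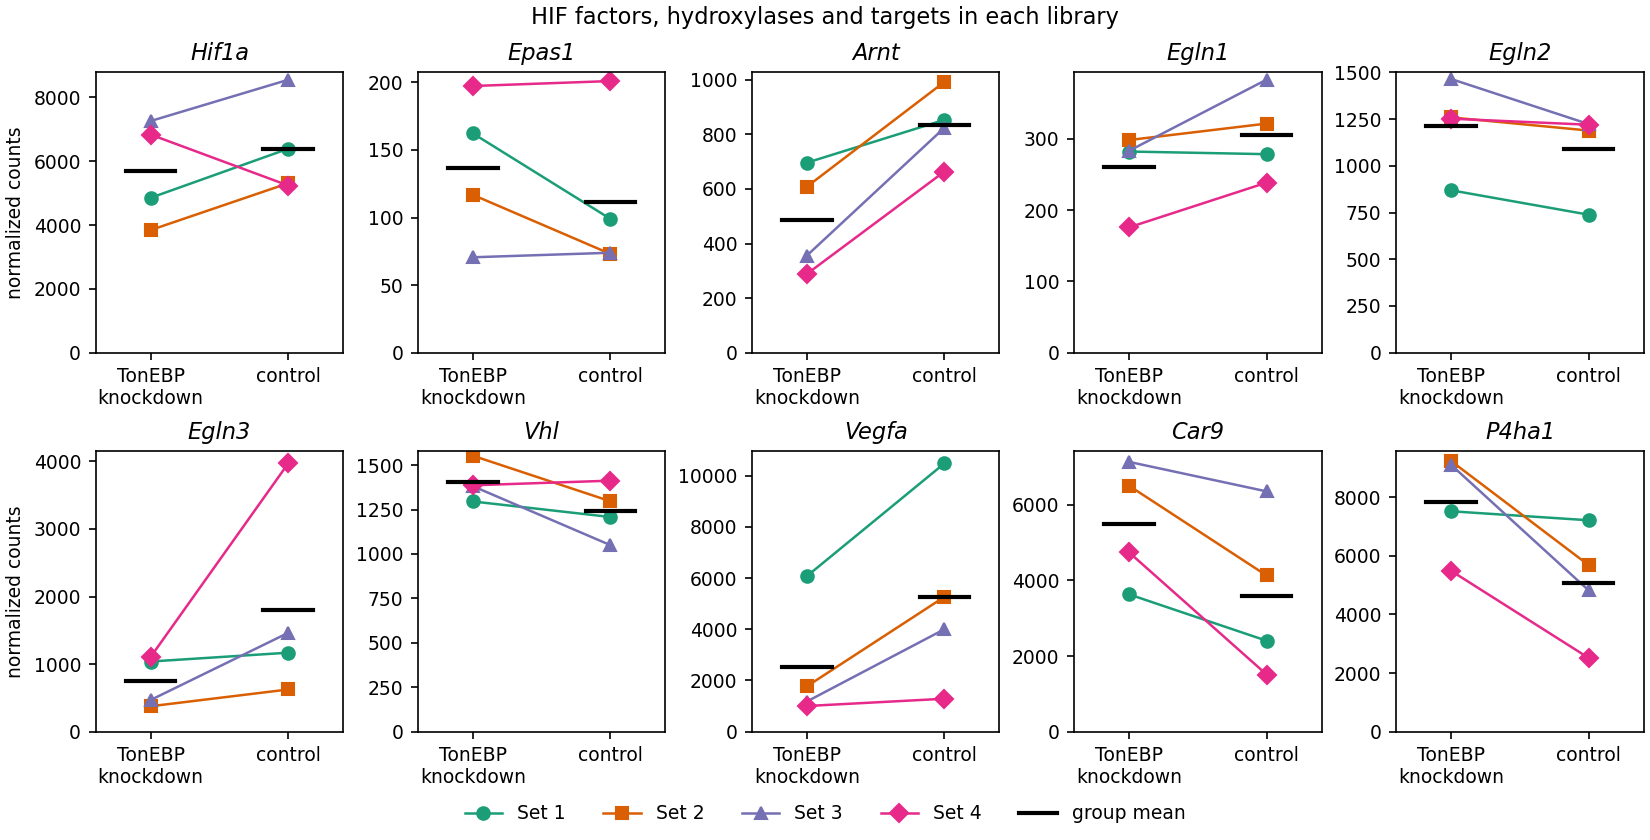
Normalized counts (linear axis from 0) of the 10 genes in TonEBP knockdown and control libraries, with lines joining the libraries of a Set and black bars at the group means (n = 4 each). The lines of Arnt, Egln3 and Vegfa all run lower in the knockdown, those of Egln2, Car9 and P4ha1 all run higher, and the Sets differ widely within a group, as for Vegfa, from 1003 to 6078 in knockdown and from 1287 to 10485 in control libraries.

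Among the factors, Hif1a (ENSRNOG00000008292) measured 4853, 3842, 7258 and 6833 normalized counts in knockdown libraries 1 to 4, against 6389.8, 5309.5, 8551 and 5237 in control libraries 1 to 4. It was lower in the knockdown of Sets 1, 2 and 3 and higher in that of Set 4, and the groups overlapped throughout. Its limma log2 fold change was -0.18 (SE 0.169, adjusted p = 0.562), and the 95% interval from -0.58 to 0.23 includes values on both sides of 0. Epas1 (ENSRNOG00000021318), which encodes the alpha subunit of HIF-2, had few reads, between 55 and 208 per library. It measured 162, 117, 70.6 and 197 normalized counts in knockdown libraries and 99.0, 73.1, 73.9 and 201 in control libraries 1 to 4. The knockdown library was higher in Sets 1 and 2, by log2 differences of 0.71 and 0.67, and close to its control in Sets 3 and 4, at -0.07 and -0.03 (limma log2 fold change 0.32, interval -0.18 to 0.82, adjusted p = 0.403).

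Arnt (ENSRNOG00000031174), the beta subunit shared by both alpha subunits and by other transcription factors of its family, measured 696, 608, 356 and 288 normalized counts in knockdown libraries 1 to 4, against 853, 993, 824 and 664 in control libraries 1 to 4. All 4 knockdown libraries lay below their own controls, and the groups overlapped only because knockdown library 1 lay above control library 4. The log2 differences were -0.29, -0.71, -1.21 and -1.20 in Sets 1 to 4, smallest in Set 1. The means were 487 ± 196 in knockdown and 834 ± 135 in control cells (SD, n = 4), 1.71-fold lower, and limma put the log2 fold change at -0.85 (SE 0.180, adjusted p = 0.0818). The authors' deposited table lists Arnt at log2 -0.76 (adjusted p = 0.00403). In DESeq2 with the block the call held without Set 1 or Set 3 and was lost without Set 2 (adjusted p = 0.0727) or Set 4 (0.0708). With any Set left out DESeq2 also called fewer genes over all genes, which bears on each lost call given below. Relative to Hif1a within the same libraries, Arnt differed by log2 0.10, -0.24, -0.97 and -1.58 in Sets 1 to 4. The ratio of these messages therefore moved little in Sets 1 and 2 and toward less Arnt in Sets 3 and 4.

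Of the subunits outside the 10 genes, Arntl, a clock factor of the same family that can also pair with HIF alpha subunits, averaged 784 ± 164 normalized counts in knockdown and 974 ± 213 in control cells (SD, n = 4), lower in all 4 Sets with a limma adjusted p of 0.183. Arnt2, a close relative of Arnt, averaged 521 ± 315 in knockdown and 481 ± 209 in control cells (SD, n = 4), and differed in direction between Sets.

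Of the 3 prolyl hydroxylases, only Egln3 was called in the authors' deposited table. Egln3 (ENSRNOG00000005053), the EGLN enzyme gene best known as a strong HIF target, measured 1038, 376, 469 and 1107 normalized counts in knockdown libraries 1 to 4, against 1169, 624, 1463 and 3970.4 in control libraries 1 to 4. It was lower in the knockdown of every Set, by log2 differences of -0.17, -0.73, -1.64 and -1.84, and a single control library, that of Set 4, stood far above the other 3 control libraries. Its means were 748 ± 378 in knockdown and 1807 ± 1484 in control cells (SD, n = 4), and limma put the log2 fold change at -1.10 (SE 0.281, adjusted p = 0.102). The authors' deposited table lists Egln3 at log2 -0.91 with an adjusted p of 0.00602. Without Set 4 the limma log2 fold change was -0.85, and the DESeq2 call was lost without Set 3 (adjusted p = 0.0510) or Set 4 (0.0936).

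Egln1 (ENSRNOG00000019773), the main oxygen sensor among these enzymes, measured 282, 298, 283 and 176 normalized counts in knockdown libraries 1 to 4 and 279, 322, 383 and 239 in control libraries 1 to 4. The knockdown library was lower in Sets 3 and 4, by log2 differences of -0.43 and -0.44, and near its control in Sets 1 and 2, at 0.02 and -0.11, with an interval of the limma log2 fold change from -0.58 to 0.10 (adjusted p = 0.363). Egln2 (ENSRNOG00000020947), an enzyme induced by estrogen rather than by hypoxia, measured 869, 1259.5, 1465 and 1253 in knockdown and 739, 1189, 1224 and 1220.4 in control libraries 1 to 4. Each knockdown library lay slightly above its control, by log2 0.23, 0.08, 0.26 and 0.04, and the interval of the limma log2 fold change, -0.09 to 0.40, includes 0 (adjusted p = 0.414). Within a library the log2 ratio of Egln3 to Egln1 was lower in the knockdown in all 4 Sets, by differences of -0.19, -0.62, -1.20 and -1.40, a mean of -0.86 ± 0.55 (SD over 4 Sets).

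Vhl (ENSRNOG00000010258), the subunit that recognizes hydroxylated HIF alpha, measured 1296, 1553, 1382 and 1387 normalized counts in knockdown libraries 1 to 4 and 1208, 1297, 1049.9 and 1413 in control libraries 1 to 4. The knockdown library was higher in Sets 1, 2 and 3 and slightly lower in Set 4, and the limma log2 fold change of 0.18 had an interval from -0.09 to 0.46 (adjusted p = 0.382). None of the 6 measured partners of its ligase complex was called in the authors' deposited table. With 9.31% of all genes called there in either direction, so short a list can easily hold no call. Their median limma log2 fold change was -0.09, beside 0.00 over all genes kept, and the 2 with the lowest p, the adaptor Tceb2 and the ubiquitin-like modifier Nedd8, were each at log2 -0.20 (limma adjusted p of 0.376 and 0.391).

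Vegfa (ENSRNOG00000019598), the growth factor for blood vessels, measured 6078, 1772, 1179 and 1003 normalized counts in knockdown libraries 1 to 4, against 10485, 5268, 4004 and 1287 in control libraries 1 to 4. Every knockdown library was below its own control, yet Set 1 was so high that its knockdown library exceeded the controls of the other 3 Sets. The log2 differences were -0.79, -1.57, -1.76 and -0.36 in Sets 1 to 4, largest in Sets 2 and 3 and smallest in Set 4. Means were 2508 ± 2403 in knockdown and 5261 ± 3858 in control cells (SD, n = 4), 2.10-fold lower. Limma put the log2 fold change at -1.12 (SE 0.243, adjusted p = 0.0825), and without the block the SE was 0.724 (adjusted p = 0.685). The authors' deposited table lists Vegfa at log2 -0.96 with an adjusted p of 0.00115, and its DESeq2 call was lost without Set 2 (adjusted p = 0.0680).

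Car9 (ENSRNOG00000017073), a membrane carbonic anhydrase that helps cells export acid and a classical marker of HIF-1 activity, measured 3630.5, 6503, 7134 and 4741 normalized counts in knockdown libraries 1 to 4, against 2404, 4129.6, 6354 and 1511 in control libraries 1 to 4. It was higher in the knockdown of each Set, by log2 differences of 0.59, 0.65, 0.17 and 1.65, so the largest came from Set 4, where Vegfa differed least. The means were 5502 ± 1607 in knockdown and 3599.7 ± 2134 in control cells (SD, n = 4), 1.53-fold higher, and limma put the log2 fold change at 0.77 (SE 0.234, adjusted p = 0.129). The value rests in part on Set 4: without it the limma log2 fold change was 0.47, and the DESeq2 adjusted p was 0.183. The DESeq2 call was also lost without Set 1 (0.0796) or Set 2 (0.203). In the authors' deposited table Car9 stands at log2 0.65 with an adjusted p of 0.0426.

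P4ha1 (ENSRNOG00000050655), a catalytic subunit of the collagen prolyl 4-hydroxylase, measured 7523, 9236, 9106 and 5488 normalized counts in knockdown libraries 1 to 4, against 7216, 5683, 4819 and 2515 in control libraries 1 to 4. The difference was close to 0 in Set 1 (log2 0.06) and larger in Sets 2, 3 and 4 (0.70, 0.92 and 1.13). With means of 7838 ± 1749.7 in knockdown and 5058 ± 1964 in control cells (SD, n = 4), P4ha1 was 1.55-fold higher, and limma put the log2 fold change at 0.70 (SE 0.189, adjusted p = 0.109). The authors' deposited table lists it at log2 0.63 with an adjusted p of 0.0201. The DESeq2 call held without Set 1 (adjusted p = 0.000236) and was lost without Set 2 (0.199), Set 3 (0.0917) or Set 4 (0.167).

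The HIF targets among the 10 genes thus split in direction. Within a library the log2 ratio of Vegfa to Car9 was lower in the knockdown by -1.38, -2.23, -1.93 and -2.01 in Sets 1 to 4, a mean difference of -1.89 ± 0.36 (SD over 4 Sets), which is steadier than the difference of either gene alone (SD 0.660 and 0.627). The ratio of Vegfa to P4ha1 was lower by -0.85, -2.27, -2.68 and -1.49. Its SD of 0.818 was larger than that of Vegfa (0.660) or P4ha1 (0.461) alone, so this ratio was less steady. Car9 and P4ha1 were both most different in Set 4 and parted in Set 3, where Car9 differed least, and the log2 difference of their ratio, Car9 over P4ha1, changed sign between Sets (0.53, -0.05, -0.75 and 0.52). These pairs were chosen after their values were seen, and with 4 Sets the smallest 2-sided p of an exact sign-flip test is 0.125, so no test is given.

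**Figure D2:**
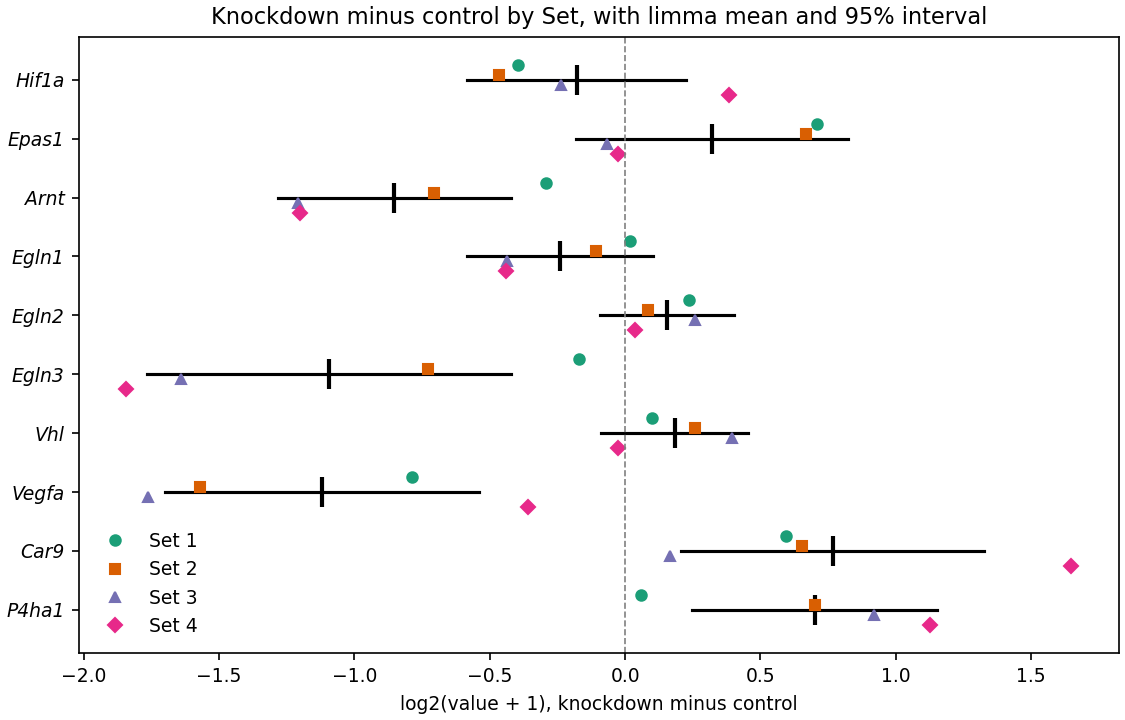
Knockdown minus control on the log2(normalized count + 1) scale for the 10 genes, with 1 point per Set, a black tick at the limma log2 fold change and a black line over its 95% interval (Set as a block). The intervals of Arnt, Egln3 and Vegfa lie below 0 and those of Car9 and P4ha1 above 0, while those of Hif1a, Epas1, Egln1, Egln2 and Vhl include 0.

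The proximal promoters of 2 genes that were higher and 2 that were lower are shown because these HIF targets and partner genes went opposite ways. Sequences are those of RefSeq, build GRCr8, from 250 bases before to 50 bases after the transcript start the table uses, and are read 5′ to 3′ on the gene's strand. Capitals mark the core of the hypoxia response element, ACGTG or GCGTG, on either strand, where the reverse strand reads CACGT or CACGC. Car9 lies at chr5:62558774-62559073, P4ha1 at chr20:27844796-27845095, Vegfa at chr9:22452604-22452903 and Arnt at chr2:185686453-185686752, all on the plus strand. Vegfa has a second window in the table, with no core either.
Car9: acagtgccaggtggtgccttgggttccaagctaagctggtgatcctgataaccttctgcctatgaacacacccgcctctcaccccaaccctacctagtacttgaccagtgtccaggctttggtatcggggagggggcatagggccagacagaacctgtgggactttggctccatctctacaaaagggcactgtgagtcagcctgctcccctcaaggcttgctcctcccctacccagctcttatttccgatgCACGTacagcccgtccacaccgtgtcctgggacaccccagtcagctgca
P4ha1: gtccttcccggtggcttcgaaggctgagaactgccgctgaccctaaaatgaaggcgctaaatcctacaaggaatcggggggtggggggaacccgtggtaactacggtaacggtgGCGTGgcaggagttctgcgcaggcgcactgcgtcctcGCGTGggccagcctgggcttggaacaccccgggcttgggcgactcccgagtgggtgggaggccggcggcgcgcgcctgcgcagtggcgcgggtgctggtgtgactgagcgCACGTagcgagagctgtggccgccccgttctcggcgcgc
Vegfa: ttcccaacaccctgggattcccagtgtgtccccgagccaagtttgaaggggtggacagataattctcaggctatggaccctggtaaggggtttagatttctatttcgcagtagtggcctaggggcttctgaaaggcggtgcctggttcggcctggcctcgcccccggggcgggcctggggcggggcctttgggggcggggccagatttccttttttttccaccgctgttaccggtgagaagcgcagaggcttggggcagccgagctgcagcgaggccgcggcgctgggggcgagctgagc
Arnt: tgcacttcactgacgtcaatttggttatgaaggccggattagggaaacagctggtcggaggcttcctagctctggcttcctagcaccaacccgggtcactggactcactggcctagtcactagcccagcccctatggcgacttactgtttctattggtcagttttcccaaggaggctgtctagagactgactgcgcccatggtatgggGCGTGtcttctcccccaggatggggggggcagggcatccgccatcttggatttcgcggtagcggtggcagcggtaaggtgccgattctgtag
Car9 held 1 core, 2 to 6 bases into the transcript, and P4ha1 held 3, starting at -136, -99 and 12. The window of Vegfa held 0, and that of Arnt held 1, starting at -42. All 10 genes matched a window, and 5 of them held a core (Hif1a, Arnt, Egln1, Car9 and P4ha1). Since 41.6% of the 33469 windows of the table do, a share of 5 in 10 is near the background. In Hif1a the cores of both strands overlap in one palindrome. The TonE consensus, the binding motif of TonEBP, occurred on either strand in 0 of the 10 genes' windows and in 5.98% of all windows. At so low a share, 10 genes can easily hold none. These letters describe windows of 300 bases only, and enhancers farther away were not searched.

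Around the 10 genes, the collagen-modifying hydroxylases, the family to which P4ha1 belongs, mostly had fold changes above 0. The list of 11 genes, P4ha1 included, also holds the partner subunit P4hb and the HIF-acting enzyme P4htm, which were the 2 below 0. The other 9 had a limma log2 fold change above 0, where 6202 of all 12383 genes kept did. The median of all 11 was 0.43, beside 0.00 over all genes kept. The authors' deposited table called 5 higher and 0 lower, and limma called 0 at an adjusted p under 0.05 (6 at an unadjusted p under 0.05, all higher). Over all genes, 4.09% were called higher in the deposited table and 11.1% were higher at an unadjusted p under 0.05 in limma. Plod2, a lysyl hydroxylase that sets collagen cross-links, measured 25369, 37283, 40584 and 29652 normalized counts in knockdown libraries 1 to 4, against 20464, 22649, 20919 and 9608 in control libraries 1 to 4, so the groups did not overlap (authors' deposited table, log2 0.79, adjusted p = 0.00463). P4ha2, the other main catalytic subunit, measured 3140.3, 5784, 5128 and 4405 in knockdown and 2333, 2924, 2717 and 3006 in control libraries 1 to 4, again without overlap (authors' deposited table, log2 0.68, adjusted p = 0.000914). The prolyl 3-hydroxylase gene Leprel2 averaged 4866 ± 1296 in knockdown and 3243 ± 1042 in control cells (SD, n = 4; authors' deposited table, log2 0.56, adjusted p = 0.0146), and Lepre1, the fifth call, was at log2 0.53 there. P4hb, the partner subunit of the prolyl 4-hydroxylases that also works as protein disulfide isomerase, averaged 43909 ± 6311 in knockdown and 45484 ± 13981 in control cells (SD, n = 4; limma log2 fold change -0.01, SE 0.210). P4htm, an endoplasmic reticulum enzyme of this list that can act on HIF alpha, was at log2 -0.14 (limma adjusted p = 0.804). Lepre1, P4hb and P4htm were chosen after their values were seen.

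**Figure D3:**
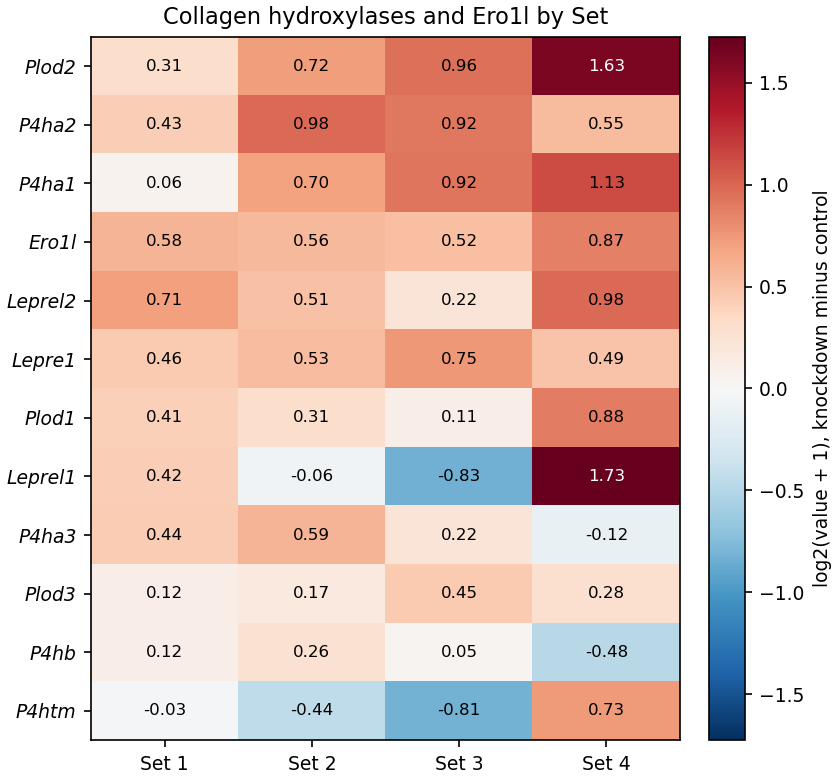
Knockdown minus control on the log2(normalized count + 1) scale in each Set for the 11 genes of the collagen hydroxylase list (with P4hb and P4htm) and for Ero1l, as colour and printed value, ordered by the mean. Plod2, P4ha2, P4ha1, Ero1l, Leprel2, Lepre1, Plod1 and Plod3 are above 0 in all 4 Sets, and Leprel1, P4ha3, P4hb and P4htm change sign between Sets.

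Known HIF targets outside glycolysis, a list of 27 genes that shares P4ha2, Plod1 and Plod2 with the hydroxylases, had 19 of 26 tested members above 0 and a median of 0.25. Over all genes kept, 6202 of 12383 were above 0. Because of the shared genes, the directions of these lists are not separate observations. The list leaves out the 10 genes, among whose HIF targets the authors' deposited table called Vegfa and Egln3 lower and Car9 and P4ha1 higher. Cited2, a HIF-induced gene of another list, was called lower too. Within the list, that table called 7 higher and 0 lower, against 4.09% higher and 5.22% lower over all its genes with a p. Vldlr, a lipoprotein receptor, led with 861, 1339.8, 1787 and 1216 normalized counts in knockdown libraries 1 to 4, against 505, 497, 780.0 and 80.2 in control libraries 1 to 4, without overlap (authors' deposited table, log2 1.12, adjusted p = 0.00602). Its difference was largest in Set 4, where the control library was far below the others. Hmox1, which breaks down heme and also answers oxidative stress, averaged 2950.4 ± 951 in knockdown and 1910.0 ± 1447 in control cells (SD, n = 4; authors' deposited table, log2 0.73, adjusted p = 0.0286). The remaining calls were Plod2, P4ha2, Ero1l (log2 0.61), Pdk1 (0.57) and Kdm4b (0.43), with values of the authors' deposited table, the last 3 named after their values were seen. Ero1l, the oxidase that recharges disulfide isomerase in the endoplasmic reticulum, averaged 4108 ± 911 in knockdown and 2701 ± 801 in control cells (SD, n = 4) and differed by log2 0.52 to 0.87 over the Sets. For 3 widely used hypoxia markers of this list the knockdown was higher in some Sets and lower in others: Bnip3 had a limma log2 fold change of 0.06, Ndrg1 of 0.14 and Fam162a of 0.01, with adjusted p of 0.789, 0.482 and 0.981, and they too were picked after their values were seen.

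HIF targets of glycolysis and glucose uptake were divided, with 9 above and 8 below 0 among 17 tested members and a median of 0.02. The authors' deposited table called 4 lower, the glucose transporter Slc2a1, the mutase Pgam1, the kinase Pkm and the hexokinase Hk1, and 1 higher, the phosphofructokinase Pfkl, against the same shares over all genes, 5.22% lower and 4.09% higher. Slc2a1 measured 2722, 1337, 1268 and 1054 normalized counts in knockdown libraries 1 to 4, against 3803, 2416, 2264 and 1907 in control libraries 1 to 4, lower in each Set (limma log2 fold change -0.76, SE 0.114, adjusted p = 0.0591). Pgam1 averaged 2549 ± 1166 in knockdown and 4949 ± 1315 in control cells (SD, n = 4), with a limma adjusted p of 0.0591. The authors' deposited table lists Slc2a1 at log2 -0.72 (adjusted p = 4.86e-05) and Pgam1 at log2 -0.93 (adjusted p = 3.74e-05). Pgk1 and Ldha, enzymes of the same pathway whose genes HIF-1 is known to bind, had limma log2 fold changes of 0.14 and 0.02 (adjusted p of 0.528 and 0.927). Pfkl, Pgk1 and Ldha were chosen after their values were seen.

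**Figure D4:**
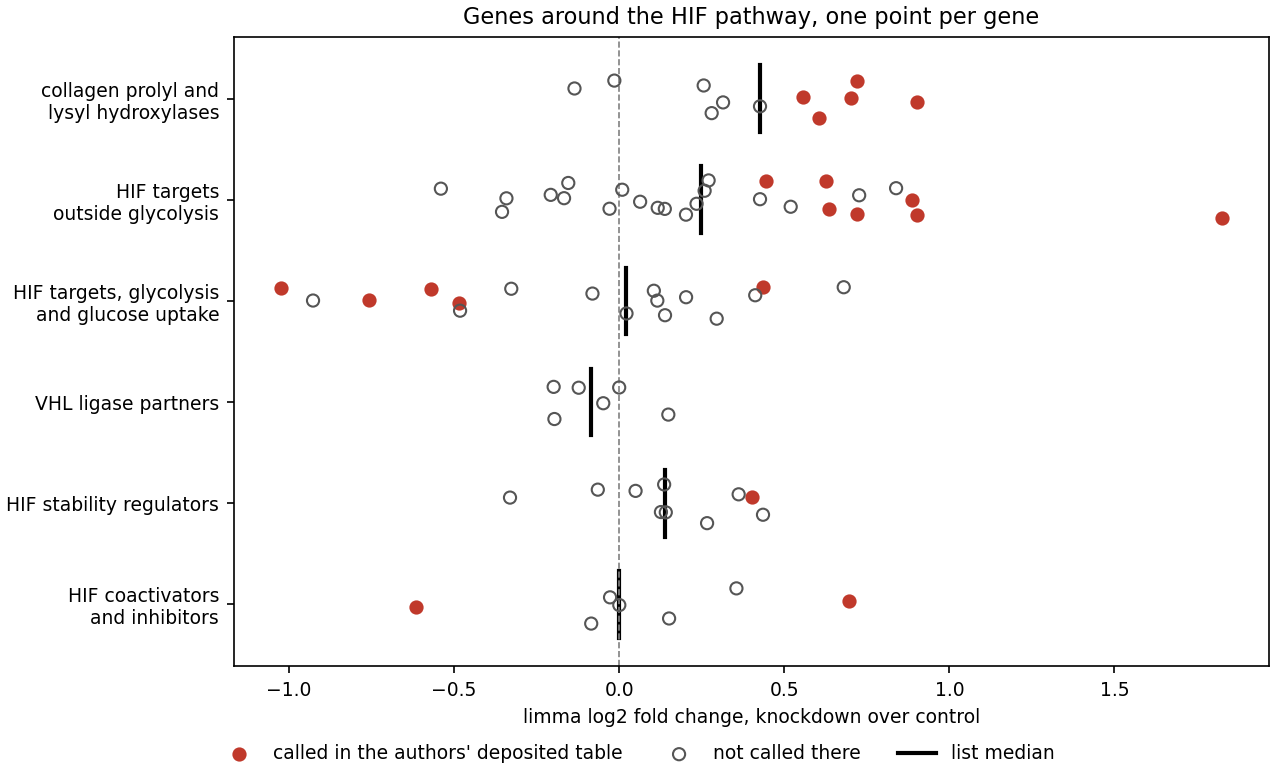
Limma log2 fold changes (knockdown over control) of the tested genes of 6 lists around the HIF pathway, with 1 point per gene, filled where the authors' deposited table calls it at an adjusted p under 0.05, and a black bar at each list's median. The calls of the hydroxylases and of the targets outside glycolysis all lie above 0, while 4 of the 5 calls among glycolytic targets lie below 0. The list of targets outside glycolysis leaves out Vegfa and Egln3, which were called lower.

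Among genes that act on HIF proteins, calls went in both directions. Of 7 tested coactivators and inhibitors of HIF transactivation, the authors' deposited table called Ncoa1, a histone acetyltransferase coactivator, higher (log2 0.64, adjusted p = 0.00867) and Cited2, a HIF-induced inhibitor that competes for the coactivators EP300 and CREBBP, lower (log2 -0.55, adjusted p = 0.0454), where 9.31% of all genes in that table were called in either direction. Cited2 measured 2981, 2509, 1068 and 1003 normalized counts in knockdown libraries 1 to 4, against 4051, 3076, 1464 and 2413 in control libraries 1 to 4, a difference carried most by Set 4. Hif1an, the asparaginyl hydroxylase that blocks coactivator binding, was at log2 0.15 (limma adjusted p = 0.625) and was named after its value was seen. Among 10 genes for HIF protein stability, the authors' deposited table called 1 higher, Os9 (log2 0.38, adjusted p = 0.0360), and 0 lower. Over all its genes 4.09% were called higher and 5.22% lower, so 1 in 10 is near the background. Usp20, a deubiquitinase, averaged 1862 ± 27.3 in knockdown and 1386 ± 187 in control cells (SD, n = 4) without overlap, and Cops5, a subunit of the COP9 signalosome, averaged 1037 ± 134 in knockdown and 1319.6 ± 282 in control cells (SD, n = 4), with limma adjusted p of 0.109 and 0.208. Of the other carbonic anhydrases 6 had enough reads to be tested, and the authors' deposited table called 0 of them, against 9.31% of all genes. Car13, a cytosolic enzyme, had the lowest p among them, at 97.5 ± 43.0 in knockdown and 152 ± 27.3 normalized counts in control cells (SD, n = 4; limma adjusted p = 0.122), and Car11 was at log2 0.46 (adjusted p = 0.410).

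The genes whose pattern over the 8 libraries lay nearest to that of a member were found from log2 values centred on each gene's mean, by the root mean square difference from the member among 9429 genes with a mean of at least 100 normalized counts. For P4ha1 they were Zfp451, Zfp954 and Ero1l, at 0.182, 0.196 and 0.196 log2 units, where the spread of P4ha1 itself was 0.572. For Car9 they were the cell cycle inhibitor Cdkn1b (0.258), Cdc42bpg (0.275) and LOC497940 (0.288), against a spread of 0.726. Egln3 was nearest to Ugdh (0.325), which makes UDP-glucuronate for glycosaminoglycans, to Jph2 (0.382) and to the VEGF receptor gene Flt1 (0.430), against 0.997. For Vegfa the nearest were Ddit4l2 (0.430), Nexn (0.446) and LOC684828 (0.455), against 1.19. Such distances take in differences between Sets, so a near gene need not differ alike between knockdown and control. Ddit4l2 averaged 412 in knockdown and 647 in control libraries, Nexn 167 and 191, and LOC684828 1905 and 2581. Hif1a was nearest to Rpe (0.138), Atp6v1d (0.173) and Dstn (0.173), against 0.344. Rpe averaged 785 in knockdown and 942 in control libraries and Dstn 885 and 993, while Atp6v1d was higher in knockdown, 2499 and 2356. Flt1 measured 70.4, 43.8, 64.8 and 110.5 normalized counts in knockdown libraries 1 to 4, against 123, 102, 248 and 332 in control libraries 1 to 4. This receptor for Vegfa was thus lower in every Set (limma adjusted p = 0.0591). The authors' deposited table lists Flt1 at log2 -1.19 with an adjusted p of 4.00e-05.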

How the data were processed

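RNA was sequenced as single reads of 50 cycles, per the labels. Novoalign 2.08.01, DESeq2 1.10.1 and build rn5 are named, per the submitters' processing notes, without their roles. Which read counter and annotation were used, and whether strand was used, is not given in the sources used here, so reads shared with overlapping genes or paralogs could not be checked. The deposited signal values are normalized counts per library. They were whole multiples of each column's smallest value for 100% of values (within 0.001 reads), so reads could be recovered, and the factors equal DESeq2 size factors. The deposited log2 fold changes and adjusted p-values are the authors' own, with no p for 1362 genes. 18 symbols had become dates and were not used as names.

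The main test was limma 3.58.1 (trend option) on log2(value + 1), a scale on which fold changes of weakly read genes come out too small, 2-sided, with Benjamini-Hochberg adjustment over all 12383 genes that edgeR's filterByExpr kept. The Set was a block, because libraries of the same Set number deviated together from their group means (r of 0.681 to 0.805 over genes, against -0.578 to 0.333 for different numbers). P-values measure the spread between these Sets, which may be technical. DESeq2 1.42.0 and edgeR 4.0.16 were run on the recovered reads in R 4.3.3, and the limma and DESeq2 fits with the block were tested on simulated data. Figures used matplotlib 3.10.9. Symbols of lists were matched directly or through RefSeq synonyms.

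The members, lists, tests and alternatives were chosen with earlier results of these data known. Named genes were all 10 members, Nfat5, and from each list up to 4 called in the authors' deposited table by size of fold change, with 2 more of lowest limma p where fewer than 2 were called, and the 3 nearest genes of 5 members.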

Additional observations from a re-analysis of the deposited data

Results flagged for a closer look

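Within groups of 4 libraries, and over the 4 Sets' differences, 32 groups of values were screened for a sample far from the others, of which chance alone gives about 1 in 20. Vegfa was high in knockdown library 1, at 6078 normalized counts, where the other 3 knockdown libraries lay between 1003 and 1772. Egln1 was low in knockdown library 4, at 176, where the other knockdown libraries lay between 282 and 298. Egln2 was low in control library 1, at 739, where the other control libraries lay between 1189 and 1224. For Vegfa and Egln2 the other library of the same Set was also the extreme one of its group, control library 1 at 10485 and knockdown library 1 at 869. For Egln1 it was control library 4 at 239.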

How the results depend on the processing

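Over 16 alternatives the 10 members gave 160 log2 fold changes, of which 0 turned direction. Pseudocounts of 0.5 and 5, no filter, TMM scaling and edgeR with the replicate block left the counts of calls at 0, for members and for all genes. Without the replicate block limma called 0 higher and 1 lower gene and 0 members. DESeq2 with the replicate block called 518 higher and 656 lower genes and 2 higher and 3 lower members, and with no replicate block 68 higher and 95 lower genes and 0 members. With both libraries of a Set left out, limma called between 0 and 0 genes, and DESeq2 with the block, without Sets 1, 2, 3 and 4 in turn, 313, 106, 317 and 202 higher and 571, 187, 347 and 255 lower genes, with between 0 and 1 member higher and between 1 and 3 lower. That last alternative was chosen after seeing the data. None of the 5 members called by DESeq2 kept its call in all 4 cases: Vegfa kept it in 3, Arnt and Egln3 in 2, and Car9 and P4ha1 in 1. Over all genes too, fewer were called in either direction in each of these cases than with no Set left out. The share of all called genes that kept their call was not counted, so these losses are not particular to the members. With a Set left out, limma's log2 fold change ran from -1.37 to -0.91 for Vegfa, from -1.40 to -0.85 for Egln3, from -1.04 to -0.73 for Arnt, from 0.47 to 0.97 for Car9 and from 0.56 to 0.91 for P4ha1. The cause of the difference between limma and DESeq2 was not tested. Reads limit Epas1 most, with at most 208 in a library.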
